A study of Mus musculus with 4 samples.

Results

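The nuclear genes for the subunits of oxidative phosphorylation were followed in mouse macrophages given an inflammatory stimulus, a caspase inhibitor and a RIPK1 inhibitor. Genes were taken by symbol stem (Nduf followed by a, b, c, s or v and a number, Sdha to Sdhd, Uqcr, Cox4 to Cox8, and Atp5) where a probe carried a single symbol, which gave 81 of the 19938 genes so measured. Grouped by symbol stem, they comprised 35 genes of complex I, 4 of complex II, 8 of complex III, 17 of complex IV and 17 of ATP synthase. Genes were taken by symbol and not by their values, though the choice was made with earlier results of these data known. Where a gene had several probes, the one with the highest mean over the 4 arrays stood for it. All cells were macrophages grown from the bone marrow of female BALB/c mice in medium conditioned by L929 cells as the source of M-CSF. The LPS/zVAD/Nec-1 cells received 10 ng/ml LPS, 50 µM zVAD and 30 µM Nec-1, the LPS/zVAD cells received 10 ng/ml LPS and 50 µM zVAD, the LPS cells received 10 ng/ml LPS, and Control cells received none of the 3 agents. LPS is bacterial lipopolysaccharide, which Toll-like receptor 4 senses; zVAD blocks caspases, so that stimulated macrophages can enter RIPK1-dependent necroptosis; and Nec-1 (necrostatin-1) inhibits the kinase RIPK1. No cells given zVAD or Nec-1 without LPS were analysed here, and how long each treatment lasted is not given in the sources used here.

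Oxidative phosphorylation is carried out in the inner mitochondrial membrane. Complexes I and II pass electrons from NADH and succinate to ubiquinone, complex III hands them to cytochrome c, complex IV reduces oxygen, and the proton gradient built along the way drives ATP synthase. In macrophages, LPS is known to shift energy metabolism towards glycolysis, and succinate oxidation by complex II and electron flow into complex I are known to shape cytokine production. The genes measured here are all encoded in the nucleus, and the core subunits encoded by mitochondrial DNA were not analysed here.

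Each condition had 1 array, so no error between replicates can be given, no test was made, and every difference below is one between single arrays. Values are log2 gene-level signals, a log2 ratio is the difference of 2 such signals for the same gene, and a gene was counted as higher or lower at 1.5-fold or more (a log2 ratio of 0.585). Of the 81 genes, 78 reached on at least 1 array the median of all signals (log2 6.47), and counts below are over those 78 and over the 12203 genes of the whole table that did the same. The 3 genes that did not were Cox6b2, Cox7b2 and Cox8b, isoforms of complex IV subunits known mainly from testis, heart or muscle. The median signal of the oxidative phosphorylation genes was 11.12 on the LPS/zVAD/Nec-1 array, 10.90 on the LPS/zVAD array, 11.04 on the LPS array and 11.43 on the Control array, against medians of all probes between 6.41 and 6.52. The 8 macrophage markers were all well within the measured range (10.19 to 14.05). Of the other marker lists, 7 of 8 neutrophil genes, 4 of 5 stromal and endothelial genes and 1 or 2 genes each of the B cell, T and NK cell and dendritic cell lists passed the signal filter, and 0 of 4 mast cell and basophil genes did. The RNA comes from bulk cultures, in which fewer cells of a type and less RNA per cell cannot be told apart.

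Promoters of 66 of the 81 genes were matched in a table of RefSeq windows of GRCm38.p6 that run from 250 bases before to 50 bases after the gene start. They were searched on both strands for 4 motifs of factors known to act on these genes and for the TATA box. The motif GCGCANGCG of NRF1 (nuclear respiratory factor 1) was in 19 of the 66 windows (28.8%), against 7.03% of the 27025 windows of all genes. The motif AAGATGGC of YY1 was in 10 windows (15.2%, against 3.19%), CCGGAAGT of the ETS family, to which GABPA belongs, in 5 (7.58%, against 4.31%), TCAAGGTCA of the oestrogen-related receptors in 2 (3.03%, against 0.466%) and TATAAA in 8 (12.1%, against 15.7%). At least 1 of the NRF1, ETS and YY1 motifs was in 31 windows (47.0%, against 13.2%). The windows below belong to genes that stood at least 1.5-fold apart between arrays, and are shown because they span the range from no such motif to several; capitals mark the motif matches, and each is written 5′ to 3′ on the strand of its gene.
Sdhb: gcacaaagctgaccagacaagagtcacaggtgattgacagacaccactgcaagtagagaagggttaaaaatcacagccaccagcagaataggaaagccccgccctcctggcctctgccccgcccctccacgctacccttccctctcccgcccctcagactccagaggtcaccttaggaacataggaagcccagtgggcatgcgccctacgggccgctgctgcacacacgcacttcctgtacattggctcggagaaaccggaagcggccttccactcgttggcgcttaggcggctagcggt
Ndufb8: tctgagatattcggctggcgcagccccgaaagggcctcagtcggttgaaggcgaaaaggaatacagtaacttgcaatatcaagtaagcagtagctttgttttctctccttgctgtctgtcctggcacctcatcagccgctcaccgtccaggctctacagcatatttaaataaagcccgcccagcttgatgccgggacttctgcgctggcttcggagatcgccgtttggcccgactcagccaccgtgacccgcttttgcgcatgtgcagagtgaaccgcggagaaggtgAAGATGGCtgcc
Ndufa11: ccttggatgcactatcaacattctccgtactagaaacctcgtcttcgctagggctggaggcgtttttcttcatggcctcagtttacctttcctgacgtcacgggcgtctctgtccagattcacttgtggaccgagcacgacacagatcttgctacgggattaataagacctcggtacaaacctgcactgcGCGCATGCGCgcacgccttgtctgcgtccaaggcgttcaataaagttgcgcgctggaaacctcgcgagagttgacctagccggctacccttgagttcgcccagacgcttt
Ndufa8: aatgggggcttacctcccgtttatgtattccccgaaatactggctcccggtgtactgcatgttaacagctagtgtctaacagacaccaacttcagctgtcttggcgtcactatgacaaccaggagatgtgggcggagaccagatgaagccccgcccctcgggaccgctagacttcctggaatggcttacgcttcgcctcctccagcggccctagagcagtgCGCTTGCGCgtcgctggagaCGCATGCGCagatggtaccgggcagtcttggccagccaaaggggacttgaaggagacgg
Atp5g3: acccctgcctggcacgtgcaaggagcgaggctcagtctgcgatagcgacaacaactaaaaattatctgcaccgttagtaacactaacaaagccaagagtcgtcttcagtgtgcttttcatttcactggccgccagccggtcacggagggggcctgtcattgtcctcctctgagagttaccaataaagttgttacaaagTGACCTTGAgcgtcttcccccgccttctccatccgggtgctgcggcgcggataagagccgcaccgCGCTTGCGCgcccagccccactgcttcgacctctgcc
Uqcr11: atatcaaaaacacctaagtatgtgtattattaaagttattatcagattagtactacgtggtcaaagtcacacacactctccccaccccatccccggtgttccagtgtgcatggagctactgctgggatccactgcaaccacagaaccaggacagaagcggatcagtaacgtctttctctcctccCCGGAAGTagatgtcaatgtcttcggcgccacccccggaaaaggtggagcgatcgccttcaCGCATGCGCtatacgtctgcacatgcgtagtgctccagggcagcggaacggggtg
The window of Sdhb (chr4:140961021-140961320, plus strand) held none of the 4 factor motifs. That of Ndufb8 (chr19:44555393-44555692, minus strand) held 1 YY1 motif, and that of Ndufa11 (chr17:56717512-56717811, plus strand) held a pair of overlapping NRF1 matches. Ndufa8 (chr2:36049289-36049588, minus strand) held an NRF1 motif at 2 places upstream of its start, Atp5g3 (chr2:73911277-73911576, minus strand) an ERR and an NRF1 motif, and Uqcr11 (chr10:80406772-80407071, minus strand) an ETS and an NRF1 motif. Windows of other genes 1.5-fold apart are not shown. Those of Atp5g1 and Ndufs8 held none of these motifs, and that of Uqcrh held 1 ETS motif. A match describes the letters alone and does not show that a factor binds there.

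**Figure D1:**
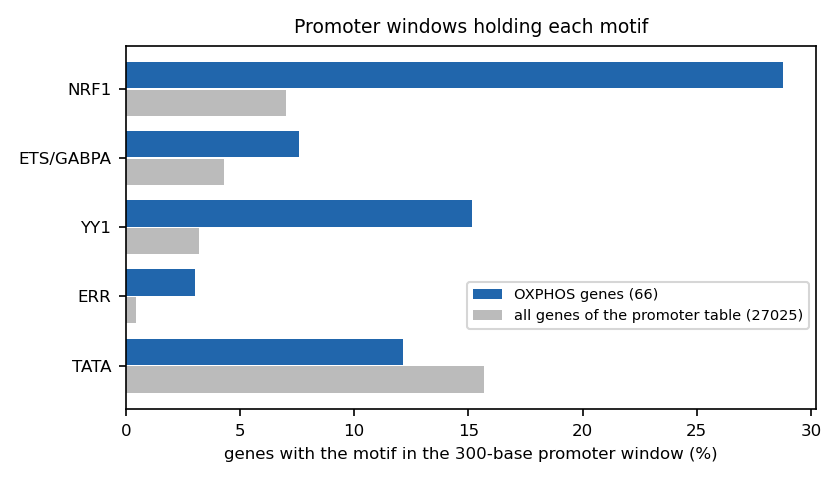
Share of promoter windows that hold each motif (x axis, percent), in blue for the 66 matched oxidative phosphorylation genes and in grey for the 27025 genes of the promoter table. NRF1 was in 28.8% of the windows in blue and 7.03% of those in grey; TATA was in 12.1% and 15.7%.

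Genes whose window held the NRF1 motif did not stand far from the others in their ratios. Over the 19 genes with the motif the median log2 ratio of LPS/zVAD to LPS was -0.11, and over the 44 matched and filtered genes without it -0.16. The medians of LPS to Control were -0.20 with the motif and -0.12 without it. For LPS/zVAD/Nec-1 against LPS/zVAD they were 0.14 and 0.15. For the YY1 motif, the medians of LPS/zVAD to LPS were -0.23 over 10 genes with it and -0.14 over 53 without it. Those of LPS to Control were -0.19 and -0.15, and those of LPS/zVAD/Nec-1 to LPS/zVAD were 0.17 and 0.11.

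With LPS alone, the oxidative phosphorylation genes lay slightly lower than in Control cells as a group. None of the 78 genes was higher by 1.5-fold, where 14.4% of all genes were, and 6 were lower (7.69%), where 17.3% of all genes were. The 6 were Ndufs8, Atp5g3, Uqcrh, Ndufa8, Atp5g1 and Uqcr11, with log2 ratios between -0.76 and -0.59. The median of the group was -0.16, against -0.12 over all genes, and 59 of 78 genes (75.6%) lay below 0, against 60.1% of all genes. With each array centred on its own median, the median of all genes in this comparison moved to -0.01 and that of the group to -0.05. In that scaling 3 genes were lower by 1.5-fold, where 1694 of all 12167 genes past the filter were. Quantile normalization gave a group median of -0.25, against -0.08 over all genes. The counts of genes past 1.5-fold were thus no higher than over the whole table in this comparison.

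Adding zVAD to LPS went with lower signals over much of the group, mostly by small amounts. No gene was higher by 1.5-fold, where 7.96% of all genes were, and 2 were lower (2.56%), Ndufb8 and Sdhb, where 13.2% of all genes were. In this contrast 64 of 78 genes (82.1%) lay below 0, against 55.1% of all genes, and the median log2 ratio was -0.15, against -0.05. With cyclic loess the group's median was -0.056, against -0.008 over all genes, and 50 of 78 genes lay below 0. Those below and above 0 were then 4 and 4 in complex III, 6 and 8 in complex IV, and 9 and 8 in ATP synthase. Genes with high signals on these arrays had lower ratios in general: over the 6936 genes at or above the 75th percentile of all signals the median was -0.14, and over the 71 oxidative phosphorylation genes among them -0.15. At those signal levels the medians lay further apart for LPS over Control, at -0.19 for the 71 genes and -0.03 for all 6936, and for LPS/zVAD over Control, at -0.37 and -0.17. Of the 3 arrays with LPS, the LPS/zVAD array held the lowest signal for 53 of 78 genes (67.9%, against 46.9% of all genes).

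Signals with Nec-1 added lay close to those with LPS alone. Compared with LPS/zVAD, 1 gene was higher by 1.5-fold, Ndufa11 (1.28%, against 7.31% of all genes), and 0 were lower, where 8.19% of all genes were. The median log2 ratio was 0.11, against 0.07 over all genes, and 57 of 78 genes (73.1%) lay above 0, against 59.8% of all genes. Compared with LPS, 0 genes were higher and 0 lower, where 0.738% and 2.75% of all genes were. The median there was -0.01, against -0.02 over all genes. It had the opposite sign with quantile normalization (0.05, against 0.02 over all genes) and with cyclic loess (0.04, against -0.005). The comparison of LPS/zVAD with LPS and that of LPS/zVAD/Nec-1 with LPS/zVAD share the LPS/zVAD array, so their ratios are not independent of each other.

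The Control array held the highest signal for 54 of the 78 genes (69.2%, against 44.6% of all genes), and the LPS/zVAD array the lowest for 52 (66.7%, against 37.1%). Set directly against Control, LPS/zVAD cells had 13 genes lower by 1.5-fold (16.7%), where 24.7% of all genes were lower, and 0 higher, where 14.4% were. The 13 were Ndufs7, Ndufs8, Ndufa8, Ndufb8, Ndufb9, Ndufc1 and Ndufa4, then Sdhb and Uqcr11, and Atp5g1, Atp5g3, Atp5j2 and Atp5k of ATP synthase. With cyclic loess, 7 genes were lower and 1 was higher, where 2181 and 2158 of all 12156 genes past the filter were. LPS/zVAD/Nec-1 cells had 4 lower than Control (5.13%, against 18.3%) and 0 higher, against 11.9%. The group's median log2 ratios were -0.35 for LPS/zVAD and -0.22 for cells that also had Nec-1, against -0.14 and -0.08 over all genes. With cyclic loess the group's medians were -0.20 and -0.13, against -0.004 and 0.016 over all genes. No gene of the group was 2-fold apart in any of the 6 comparisons, and the widest range over the 4 arrays was 0.94, in Sdhb. Over all genes, 8.24% were 2-fold higher and 7.2% lower for LPS over Control, 8.79% and 10.7% for LPS/zVAD over Control, and 6.85% and 7.68% for LPS/zVAD/Nec-1 over Control. The shares were 3.25% higher and 3.59% lower for LPS/zVAD over LPS, 1.14% and 3.32% for LPS/zVAD/Nec-1 over LPS/zVAD, and 0.0738% and 0.541% for LPS/zVAD/Nec-1 over LPS.

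**Figure D2:**
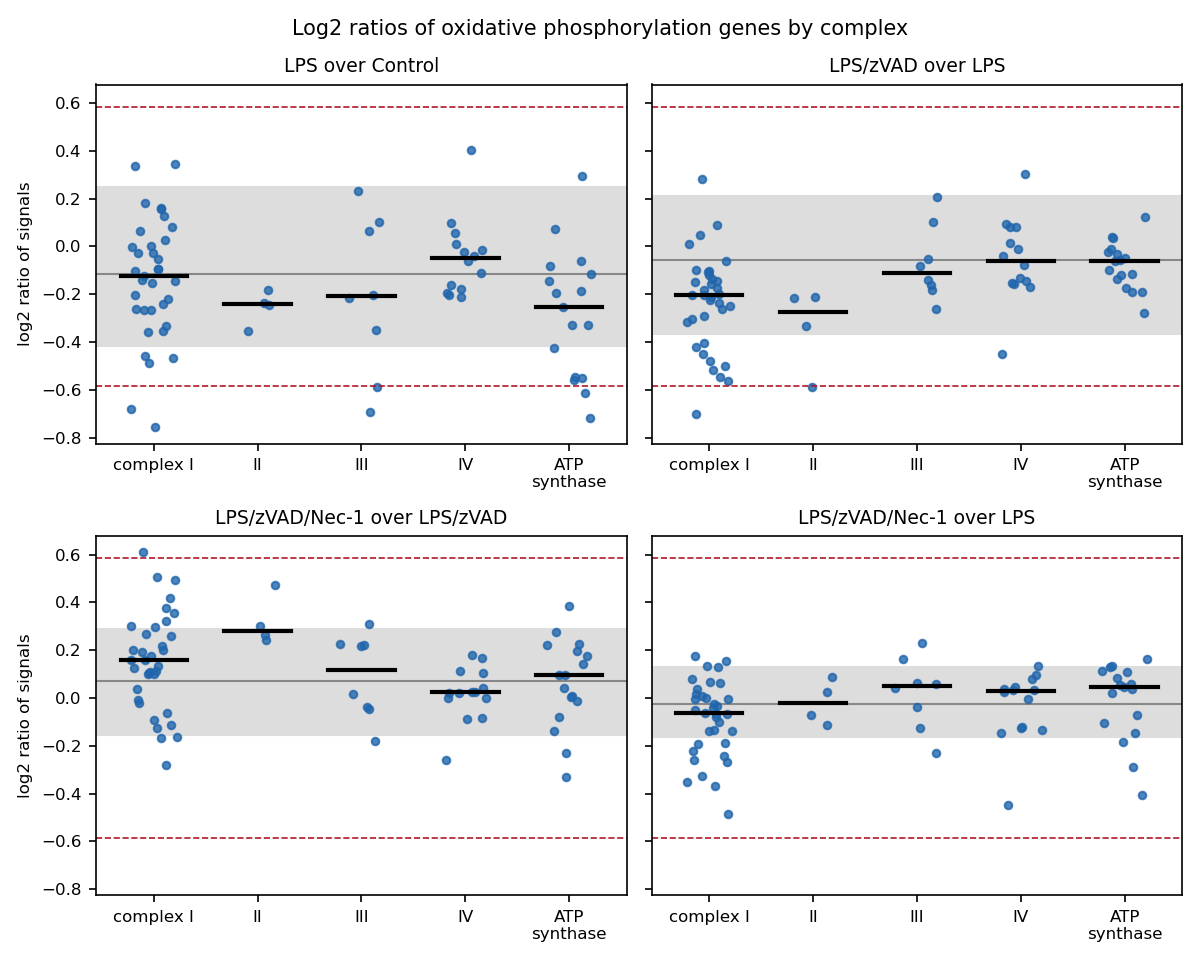
Log2 ratio of each of the 78 genes past the signal filter (y axis), by complex (x axis), in 4 comparisons. Each point is 1 gene, black bars are medians of a complex, the grey line and band are the median and quartiles of all 12203 genes, and dashed lines mark 1.5-fold; complexes I and II lie lowest in the panel of LPS/zVAD over LPS, with medians of -0.20 and -0.27.

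Complex I, NADH:ubiquinone oxidoreductase, had a median log2 ratio of -0.12 for LPS over Control, -0.20 for LPS/zVAD over LPS and 0.16 for LPS/zVAD/Nec-1 over LPS/zVAD. With zVAD, 31 of its 35 genes (88.6%) lay below 0, against 55.1% of all genes. Of the 35, 1 was lower by 1.5-fold (2.86%, against 13.2% of all genes). Its matrix arm, which takes electrons from NADH, and its membrane arm, which pumps protons, had the same median in that comparison (-0.21), over 15 and 18 genes. For LPS/zVAD/Nec-1 against LPS the median of complex I was -0.06, and 0.00 with quantile normalization. For LPS over Control it was -0.02 with arrays centred, and for LPS/zVAD over LPS -0.10 with cyclic loess.

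Ndufb8, an accessory subunit of the membrane arm, had log2 signals of 10.35 with LPS/zVAD/Nec-1, 9.85 with LPS/zVAD, 10.55 with LPS and 10.55 in Control. The LPS/zVAD array stood alone at the low end while the others lay within 0.20 of each other. The log2 ratio was -0.70 for LPS/zVAD over LPS, which with cyclic loess was -0.58 and short of 1.5-fold, and 0.51 for LPS/zVAD/Nec-1 over LPS/zVAD. Ndufb9, another accessory subunit of that arm, had 11.61 with LPS/zVAD/Nec-1, 11.12 with LPS/zVAD, 11.66 with LPS and 11.91 in Control. At -0.54, the ratio of LPS/zVAD to LPS was short of the threshold and passed 1.5-fold only with arrays centred (-0.59). Ndufs5 showed the same, at -0.56 and at -0.61 with arrays centred.

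Ndufa11, a membrane-arm subunit, had 11.04 with LPS/zVAD/Nec-1, 10.43 with LPS/zVAD, 10.91 with LPS and 10.75 in Control. It was the 1 gene that stood 1.5-fold higher with Nec-1 than without it, at 0.61, and its second probe gave 0.69. With arrays centred the ratio was 0.58, and with cyclic loess 0.56, both short of 1.5-fold. Its promoter window holds the overlapping NRF1 matches shown above.

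Ndufs8 and Ndufa8 were the complex I genes lower by 1.5-fold with LPS than in Control. For Ndufs8, an iron-sulfur core subunit of the matrix arm, the signals were 11.46 with LPS/zVAD/Nec-1, 11.33 with LPS/zVAD, 11.32 with LPS and 12.08 in Control. All 3 arrays with LPS lay below Control and near each other, and the ratio of LPS to Control, -0.76, was the lowest of the group. Ndufa8, an accessory subunit of the membrane arm, had 10.81 with LPS/zVAD/Nec-1, 10.71 with LPS/zVAD, 10.81 with LPS and 11.50 in Control. LPS over Control gave -0.68 (-0.58 with arrays centred, short of 1.5-fold). Ndufa8 and Ndufs8 were also lower than Control by 1.5-fold with LPS/zVAD (-0.78 and -0.75), as they were with Nec-1 added (-0.68 and -0.62; Ndufs8 -0.54 with cyclic loess).

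Of the remaining core subunits of complex I, 1 passed 1.5-fold, in 1 comparison. Ndufs7, whose iron-sulfur cluster lies next to the quinone site, had 12.71 with LPS/zVAD/Nec-1, 12.41 with LPS/zVAD, 12.65 with LPS and 13.14 in Control, and was lower by 1.5-fold only for LPS/zVAD against Control (-0.73). Ndufv2 had a ratio of -0.45 for LPS/zVAD over LPS, 0.42 for LPS/zVAD/Nec-1 over LPS/zVAD and -0.54 for LPS/zVAD over Control (-0.65, past 1.5-fold, with quantile normalization). Ndufv1, the flavin subunit that takes electrons from NADH, had -0.17 and 0.11 in these comparisons, Ndufs1 -0.25 and -0.02, and Ndufs3 -0.20 and 0.38. The accessory subunit Ndufc1 passed it for LPS/zVAD against Control alone (-0.65, and -0.51 with cyclic loess). Ndufb10 had 6.99 with LPS/zVAD/Nec-1, 7.27 with LPS/zVAD, 7.48 with LPS and 7.62 in Control, so that its lowest signal was on the Nec-1 array. Its ratio of LPS/zVAD/Nec-1 to Control was -0.63, which was short of 1.5-fold with quantile normalization (-0.56) and cyclic loess (-0.52).

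A few complex I genes ran the other way. Ndufa1 and Ndufa12, accessory subunits, had log2 ratios of 0.34 each for LPS over Control. Ndufa1 had 9.23 with LPS/zVAD/Nec-1, 9.39 with LPS/zVAD, 9.31 with LPS and 8.96 in Control, and its ratio of LPS/zVAD to Control, 0.43, passed 1.5-fold only with cyclic loess (0.64). Ndufa4, named for complex I and now counted with complex IV, was instead lower than Control on each array with LPS, like most of the group. It had 11.15 with LPS/zVAD/Nec-1, 10.94 with LPS/zVAD, 11.14 with LPS and 11.60 in Control. LPS over Control gave -0.47 (-0.60 with quantile normalization), and that of LPS/zVAD to Control -0.67 (-0.53 with cyclic loess). Its paralogue Ndufa4l2, known as a target of hypoxia signalling, had signals close to the filter, between 6.49 and 6.83, with its lowest value in Control.

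**Figure D3:**
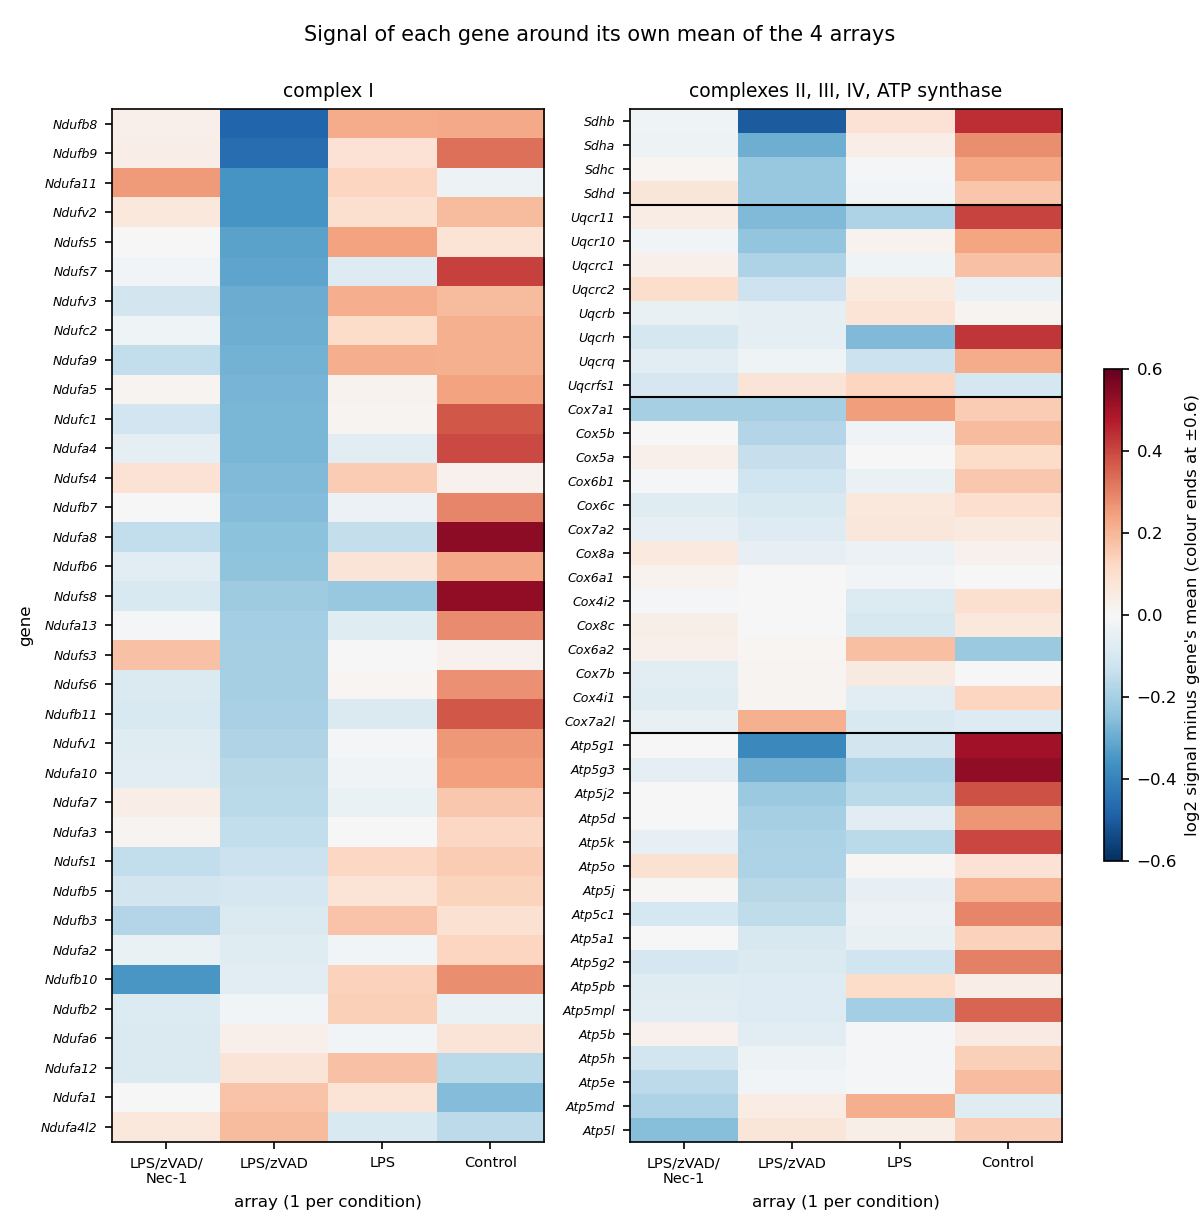
Log2 signal of each of the 78 genes minus the gene's own mean over the 4 arrays (colour scale in log2 units, ending at ±0.6); rows are genes by complex, and the columns, 1 array each, run LPS/zVAD/Nec-1, LPS/zVAD, LPS and Control. Red cells lie mostly in the Control column, which is highest for 54 genes, and blue cells mostly in the LPS/zVAD column, which is lowest for 52.

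Complex II, succinate dehydrogenase, also serves in the TCA cycle and was the one complex of which every gene shared 1 order of arrays at both ends: all 4 genes were highest in Control and lowest with LPS/zVAD. Sdhb, the iron-sulfur subunit, had 10.82 with LPS/zVAD/Nec-1, 10.35 with LPS/zVAD, 10.93 with LPS and 11.29 in Control. Its ratio of LPS/zVAD to Control was -0.94 (1.92-fold lower), the lowest of the group in that comparison. Set against LPS, the LPS/zVAD signal gave -0.59, just past 1.5-fold and short of it with quantile normalization (-0.52) and cyclic loess (-0.47).

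Sdha, the flavin subunit that oxidises succinate, had 11.19 with LPS/zVAD/Nec-1, 10.92 with LPS/zVAD, 11.26 with LPS and 11.49 in Control. Sdhc, a membrane anchor, had 11.09, 10.85, 11.06 and 11.31 in that order of conditions, and Sdhd, the other anchor, 11.05, 10.75, 10.96 and 11.14. In all 3, the LPS/zVAD/Nec-1 and LPS arrays lay within 0.10 of each other, between LPS/zVAD below and Control above. The complex had median log2 ratios of -0.24 for LPS over Control, -0.27 for LPS/zVAD over LPS and 0.28 for LPS/zVAD/Nec-1 over LPS/zVAD. The last were all above 0, between 0.24 and 0.47. Signs of these medians were the same under each scaling, whereas that of LPS/zVAD/Nec-1 over LPS (-0.02) was 0.03 with quantile normalization and 0.04 with cyclic loess.

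Complex III, the cytochrome bc1 complex, was mixed. Its median log2 ratio was -0.21 for LPS over Control, -0.11 for LPS/zVAD over LPS and 0.12 for LPS/zVAD/Nec-1 over LPS/zVAD. Uqcrh, the hinge protein, had 11.30 with LPS/zVAD/Nec-1, 11.34 with LPS/zVAD, 11.14 with LPS and 11.83 in Control, so Control stood above the other arrays and LPS alone was lowest. LPS over Control gave -0.69, LPS/zVAD over LPS gave 0.21. Uqcr11, a small accessory subunit, had 9.95 with LPS/zVAD/Nec-1, 9.64 with LPS/zVAD, 9.72 with LPS and 10.31 in Control. Its ratio of LPS to Control was -0.59, short of 1.5-fold with arrays centred (-0.48) and with cyclic loess (-0.53), and its second probe gave -0.68.

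The catalytic and core proteins of complex III had smaller ratios of LPS to Control than Uqcrh and Uqcr11, in both directions. Uqcrc1 had the same order of arrays as Uqcr11, with Control highest and LPS/zVAD lowest. Uqcrfs1, the Rieske iron-sulfur protein, had 9.10 with LPS/zVAD/Nec-1, 9.27 with LPS/zVAD, 9.33 with LPS and 9.09 in Control, and Control was its lowest array. The core proteins Uqcrc1 and Uqcrc2 had ratios of -0.20 and 0.10 for LPS over Control. They had -0.16 and -0.18 for LPS/zVAD over LPS, and 0.22 and 0.23 for LPS/zVAD/Nec-1 over LPS/zVAD.

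Complex IV, cytochrome c oxidase, showed the smallest medians of the 5 complexes between LPS and Control (-0.05) and between LPS/zVAD/Nec-1 and LPS/zVAD (0.02). None of its 14 genes past the filter, as grouped by symbol stem, was 1.5-fold apart in any comparison, against the shares of all genes given above. Ndufa4, which its symbol places with complex I here, was lower by 1.5-fold for LPS/zVAD over Control (-0.67). Its median for LPS/zVAD over LPS was -0.06, and the sign of its medians turned with the scaling. For LPS over Control it was 0.05 with arrays centred, and for LPS/zVAD over LPS 0.01 with cyclic loess. Cox6a1, the liver-type isoform, had 11.67 with LPS/zVAD/Nec-1, 11.65 with LPS/zVAD, 11.63 with LPS and 11.65 in Control, the narrowest range of the group (0.038). Cox4i1, the general isoform of subunit 4, had 11.27 with LPS/zVAD/Nec-1, 11.35 with LPS/zVAD, 11.27 with LPS and 11.47 in Control. Cox5a and Cox5b had ratios of -0.13 and -0.16 for LPS/zVAD over LPS.

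Isoforms of complex IV known from other tissues included both genes near the filter and genes clearly above it. Cox7a1, a heart and muscle isoform, had 8.997 with LPS/zVAD/Nec-1, 8.997 with LPS/zVAD, 9.45 with LPS and 9.35 in Control, so its ratio to LPS was -0.45 both with zVAD and with zVAD and Nec-1. Cox6a2, also of heart and muscle, had a ratio of 0.40 for LPS over Control, the highest of the group there. Cox4i2 lay between 7.26 and 7.44 and Cox8c between 6.59 and 6.76. Cox7a2l, a factor in the assembly of respiratory supercomplexes, had 8.88 with LPS/zVAD/Nec-1, 9.14 with LPS/zVAD, 8.83 with LPS and 8.85 in Control, with LPS/zVAD alone at the high end. Its ratio of LPS/zVAD to LPS, 0.30, was the highest of the group. The 2 probes of Cox7a2l differed in the ratio of LPS/zVAD/Nec-1 to LPS/zVAD, at -0.26 and -0.59.

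In ATP synthase the wider differences were those between Control and the arrays with LPS. Its median log2 ratio was -0.25 for LPS over Control, -0.06 for LPS/zVAD over LPS and 0.09 for LPS/zVAD/Nec-1 over LPS/zVAD, of which that for LPS/zVAD over LPS was near 0 with cyclic loess (-0.0030). Control was the highest array for 14 of its 17 genes (82.4%, against 44.6% of all genes). The mature c subunit, which forms the proton-driven rotor ring, is the same protein from Atp5g1, Atp5g2 and Atp5g3, and their median for LPS over Control was -0.61. Atp5g1 had 12.40 with LPS/zVAD/Nec-1, 12.02 with LPS/zVAD, 12.30 with LPS and 12.91 in Control, and Atp5g3 had 11.52, 11.30, 11.40 and 12.11 in that order. For both, every array with LPS lay below Control, and LPS/zVAD was the lowest.

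The ratio of LPS to Control was -0.61 for Atp5g1 (-0.51 with arrays centred, short of 1.5-fold) and -0.72 for Atp5g3. Against Control, LPS/zVAD gave -0.89 and -0.82, and LPS/zVAD/Nec-1 gave -0.51 and -0.59, the last short of 1.5-fold with arrays centred (-0.56) and with cyclic loess (-0.50). Atp5g2 had -0.42 for LPS over Control, less low than the membrane subunits Atp5k (-0.56), Atp5mpl (-0.55) and Atp5j2 (-0.54), and 0.03 for LPS/zVAD over LPS. The 5 genes of the F1 head, which makes ATP, had a median of -0.19 for LPS over Control, and Atp5b, the catalytic beta subunit, had 13.36 with LPS/zVAD/Nec-1, 13.26 with LPS/zVAD, 13.32 with LPS and 13.38 in Control. That range of 0.12 was among the narrowest of the group.

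Of the membrane subunits of ATP synthase, Atp5j2 and Atp5k were lower by 1.5-fold only for LPS/zVAD against Control (-0.61 and -0.59). Both were short of it with arrays centred (-0.55 and -0.53) and with cyclic loess (-0.52 and -0.38), and Atp5k also with quantile normalization (-0.46). Atp5md, a small subunit also called DAPIT, had 12.57 with LPS/zVAD/Nec-1, 12.80 with LPS/zVAD, 12.98 with LPS and 12.68 in Control, the highest ratio of LPS to Control in the complex (0.29). Atp5l had 10.03 with LPS/zVAD/Nec-1, 10.36 with LPS/zVAD, 10.32 with LPS and 10.43 in Control, so that the Nec-1 array was its lowest.

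**Figure D4:**
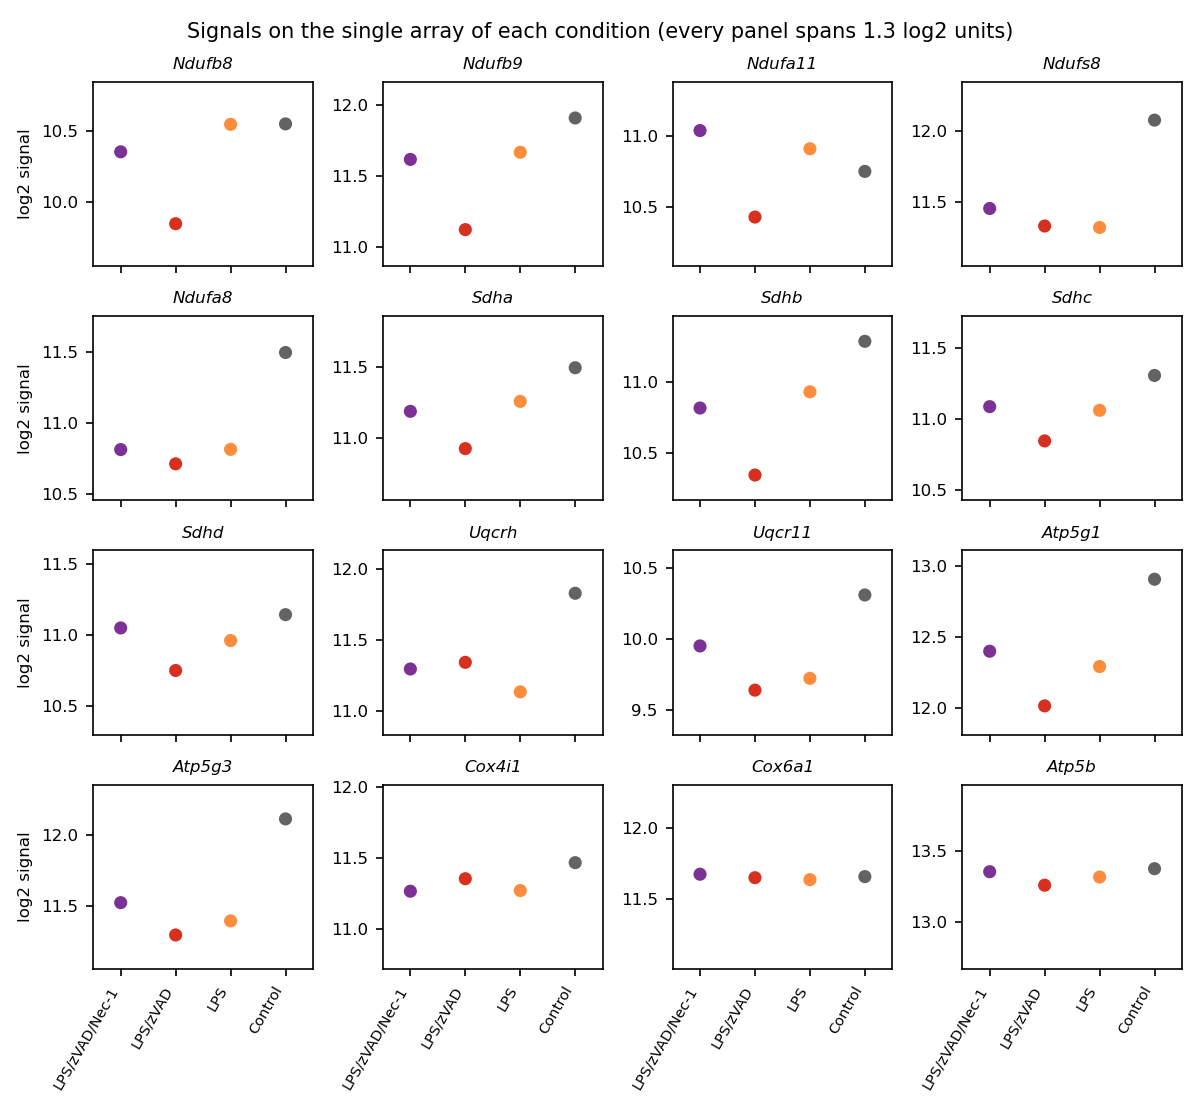
Log2 signal (y axis; each panel spans 1.3 log2 units, with its own start) of 16 genes on the 4 arrays, 1 point per condition. Ndufb8, Ndufb9, Ndufa11 and Sdhb are lowest with LPS/zVAD; Ndufs8, Ndufa8, Uqcrh and Atp5g3 are highest in Control; Cox6a1 spans 0.038.

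Agreement between probes could be checked for 16 of the 81 genes. All probes of a gene had ratios of 1 sign in 15 of the 16 for LPS/zVAD over LPS and for LPS/zVAD/Nec-1 over LPS/zVAD, and in 12 of the 16 for LPS over Control. The median spread between probes of a gene was 0.04, 0.06 and 0.10 log2 units in those comparisons. Many of these families have processed copies elsewhere in the genome, and where probes share sequence with a near-identical copy their signals cannot be assigned to 1 gene, so genes with several probes, such as Atp5l with 6, are the less certain ones.

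The factors that build the complexes form a separate list. Of 39 assembly factors past the filter, 12 were lower by 1.5-fold with LPS/zVAD than with LPS (30.8%, against 13.2% of all genes) and 1 was higher (2.56%, against 7.96%), with a median log2 ratio of -0.38. With LPS/zVAD/Nec-1, 5 were higher than with LPS/zVAD (12.8%, against 7.31% of all genes) and 2 lower (5.13%, against 8.19%), with a median of 0.30. Tmem126b, a complex I assembly factor, had 9.16 with LPS/zVAD/Nec-1, 8.22 with LPS/zVAD, 9.54 with LPS and 9.53 in Control. Atpaf1, a chaperone of the ATP synthase F1 head, had 9.31 with LPS/zVAD/Nec-1, 8.19 with LPS/zVAD, 9.45 with LPS and 9.85 in Control. For both, LPS/zVAD stood alone at the low end, at ratios to LPS of -1.32 and -1.26, and the ratios of LPS/zVAD/Nec-1 to LPS/zVAD were 0.95 and 1.12. Sdhaf4, a complex II assembly factor, had a ratio of -1.19 for LPS/zVAD over LPS, and Sco1, a copper chaperone of complex IV, 1.80 for LPS over Control.

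Mitochondrial ribosomal proteins translate the subunits that mitochondrial DNA encodes. Of 77 such genes, 10 were lower by 1.5-fold with LPS/zVAD than with LPS (12.987%, close to the 13.2% of all genes). In that comparison 0 were higher, where 7.96% of all genes were, and the median was -0.28. For LPS over Control 16 were lower (20.8%, against 17.3%) and 3 higher (3.90%, against 14.4%), with a median of -0.22. Cytosolic ribosomal proteins had a median of 0.09 for LPS/zVAD over LPS, with 1 of 49 genes higher (2.04%, against 7.96% of all genes) and 0 lower (against 13.2%). The difference in median between these lists was not tested.

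Genes that feed electrons into the chain showed both directions. Among 16 TCA cycle genes, Fh1 (fumarate hydratase), Idh3a and Idh2 were lower by 1.5-fold with LPS than in Control (-0.92, -0.90 and -0.74), and Dld was higher (0.66), shares of 18.8% and 6.25% against 17.3% and 14.4% of all genes. Ogdh, a subunit of 2-oxoglutarate dehydrogenase, had 10.28 with LPS/zVAD/Nec-1, 9.44 with LPS/zVAD, 10.30 with LPS and 10.62 in Control, a ratio of -0.85 for LPS/zVAD over LPS. Acod1, which makes itaconate, an inhibitor of succinate dehydrogenase, had 14.10 with LPS/zVAD/Nec-1, 14.12 with LPS/zVAD, 14.14 with LPS and 10.42 in Control. It was 13.1-fold higher with LPS than in Control and its log2 ratios among the 3 arrays with LPS lay between -0.03 and -0.01. Gpd2, the mitochondrial glycerol-3-phosphate dehydrogenase, had 11.20 with LPS/zVAD/Nec-1, 10.53 with LPS/zVAD, 11.57 with LPS and 9.58 in Control, and Etfdh, which passes electrons from fatty acid oxidation to ubiquinone, had a ratio of -0.73 for LPS/zVAD over LPS.

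Of 13 regulators of mitochondrial genes past the filter, 6 were lower by 1.5-fold with LPS than in Control (46.2%, against 17.3% of all genes) and 1 was higher (7.69%, against 14.4%), with a median of -0.46. Pprc1, a coactivator related to PGC-1, had a ratio of -1.15, Tfb2m, a mitochondrial transcription factor, -1.04, and Myc -1.43. Gabpb1, a subunit of the ETS factor GABP, had 8.94 with LPS/zVAD/Nec-1, 9.92 with LPS/zVAD, 9.12 with LPS and 8.90 in Control, and stood alone at the high end with LPS/zVAD. Among 15 glycolytic genes, Pfkfb3, which makes the activator of phosphofructokinase, had a ratio of 2.82 for LPS over Control, and Pdk1, which restrains pyruvate dehydrogenase, had -1.25. With LPS/zVAD, 5 glycolytic genes were lower than with LPS (33.3%, against 13.2% of all genes) and 1 higher (6.67%, against 7.96%), with a median of -0.20. The 4 measured relatives that the symbol rule does not match (Ndufab1, Cyc1, Cycs and Atpif1) had ratios between -0.34 and -0.13 for LPS/zVAD over LPS.

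**Figure D5:**
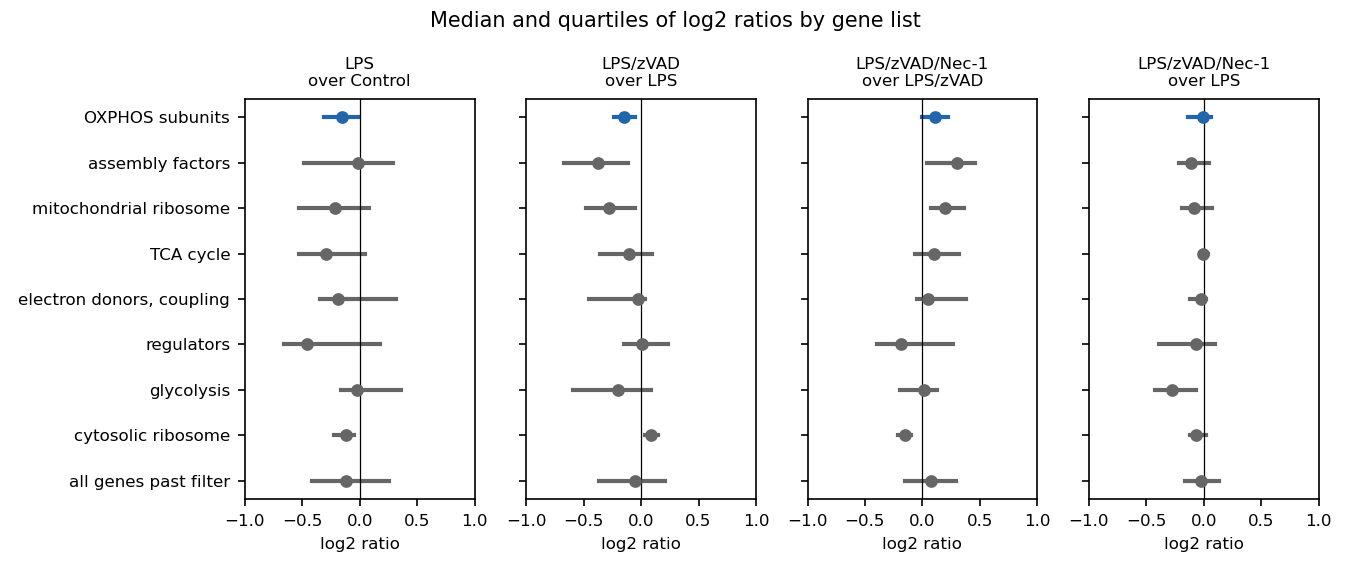
Median (point) and quartiles (bar) of log2 ratios (x axis) by gene list (y axis) in 4 comparisons, over genes past the signal filter. For LPS/zVAD over LPS the median of the oxidative phosphorylation subunits was -0.15, that of assembly factors -0.38, that of mitochondrial ribosomal proteins -0.28 and that of all genes -0.05.

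Markers of other cells also differed between these arrays, not all in 1 direction. Over the 7 neutrophil genes past the filter the median log2 ratio was -0.22 for LPS/zVAD over LPS, -0.21 for LPS/zVAD/Nec-1 over LPS/zVAD and 0.31 for LPS over Control. In the comparison of LPS/zVAD/Nec-1 with LPS/zVAD, 5 of the 7 lay below 0 while the oxidative phosphorylation genes had a median of 0.11. Mpo, a granule gene of early neutrophil cells, had ratios of -0.80 for LPS/zVAD over LPS and 0.80 for LPS/zVAD/Nec-1 over LPS/zVAD. Ly6g, S100a8 and S100a9, the highest of the list for LPS over Control, had 1.03, 0.73 and 1.12 there, and -0.31, -0.21 and -0.32 for LPS/zVAD/Nec-1 over LPS/zVAD. Camp, Ltf and Elane had only 0.06, 0.31 and 0.09 for LPS over Control. For LPS/zVAD/Nec-1 over LPS/zVAD they had -0.13, -0.53 and 0.41. Over the 8 macrophage genes the median of LPS/zVAD over LPS was -0.21, with a range from Adgre1 at -0.68 over Lyz2 at -0.03 to Cd68 at 0.34. The part of these lists in the ratios of the oxidative phosphorylation genes was not tested.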

How the data were processed

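RNA of 4 macrophage cultures was measured on 4 Affymetrix arrays, 1 per condition, grouped by title. Per the submitters' processing notes and labels, the authors deposited gene-level signals from Affymetrix Expression Console, which their range shows to be on a log2 scale. Not given in the sources used here: software version, background correction, normalization between arrays and genome build. For this reason 3 further scalings were tried (arrays centred on their median, quantile normalization, and cyclic loess with limma 3.58.1, span 0.7 and 3 iterations). Of 35556 probes, 21789 carried 1 symbol in the platform annotation and gave 19938 genes, each standing on its probe of highest mean signal; probes with several symbols were left out, 6 of which include a matching symbol. All 81 genes matched a RefSeq gene. Genes counted if their highest of 4 signals reached the median of all values (log2 6.47).

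Log2 ratios were computed with Python 3.11.15, pandas 2.3.3, numpy 2.4.6 and R 4.3.3, and the counting was tested on simulated data. Differences of 1.5-fold or more were counted, with no test, since the number of arrays limits the precision. Other choices tried were a 2-fold threshold, the mean of all probes, a stricter filter (75th percentile), no filter, and only genes with 1 probe. The last, and both comparisons of zVAD-treated cells with Control, were added after seeing the data. Named genes were those past 1.5-fold or at the ends of each comparison, core subunits, isoforms, and up to 3 of each other list by size of ratio. The genes, lists and markers were chosen with earlier results of these data known.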

Additional observations from a re-analysis of the deposited data

How the results depend on the processing

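Values are given here as under each other choice, beside those reported; for each one that moved, the cause was not tested unless the choice itself sets it, as a 2-fold threshold does. No paired analysis was possible because each condition has 1 array. For LPS over Control, the 6 genes lower by 1.5-fold became 3 with arrays centred, and the median of -0.16 became -0.055. For LPS/zVAD over LPS, 2 genes lower became 4 with arrays centred, 1 with quantile normalization and 0 with cyclic loess, and the median of -0.15 became -0.056 with cyclic loess. For LPS/zVAD/Nec-1 over LPS/zVAD, 1 gene higher became 0 with arrays centred, with cyclic loess and with only genes of 1 probe. For LPS/zVAD/Nec-1 over LPS, the median of -0.0057 became 0.047 with quantile normalization and 0.037 with cyclic loess. For LPS/zVAD over Control, cyclic loess gave 7 genes lower in place of 13, 1 higher (Ndufa1) in place of 0, and a median of -0.20 in place of -0.35. For LPS/zVAD/Nec-1 over Control it gave 1 lower in place of 4. Over all genes past the filter, 1694 of 12167 were lower for LPS over Control with arrays centred. For LPS/zVAD over LPS, 1827 were lower with arrays centred, 1274 with quantile normalization and 1260 of 12156 with cyclic loess. Higher for LPS/zVAD/Nec-1 over LPS/zVAD were 797 with arrays centred and 699 with cyclic loess. With cyclic loess, 2181 were lower and 2158 higher for LPS/zVAD over Control, and 1768 lower for LPS/zVAD/Nec-1 over Control. At 2-fold, 0 genes were higher or lower in each of the 6 comparisons. The mean of all probes, the stricter filter and no filter left the counts within 1.5 times and the medians within 0.1 in all comparisons. Of 768 values of named genes under the 3 scalings, 0 had the opposite sign after passing 1.5-fold, 23 fell short of 1.5-fold and 7 newly passed it. Many values short of 1.5-fold shifted by more than 0.1 or changed sign. These were 36 for LPS over Control with arrays centred and 20 with quantile normalization. With cyclic loess they were 22 for LPS/zVAD over LPS and 22 for LPS/zVAD over Control. The fewest, 1, were for LPS/zVAD over Control with arrays centred. Over all genes, calls that were higher made up 21.1% for LPS/zVAD/Nec-1 over LPS, and 10.3% with arrays centred. They made up 37.7% for LPS/zVAD over LPS and 36.8% for LPS/zVAD over Control, and with cyclic loess 47.9% and 49.7%. Ratios of Ndufa4l2 and Cox8c, whose signals lie near the filter, are the least certain.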
